A study of Bos taurus with 20 samples.

Results

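PTGS2 and STAR, the genes of an inducible prostaglandin synthase and of a mitochondrial cholesterol carrier, were followed across the 4 sample groups of a bovine day 14 RNA sequencing series. They were taken by gene symbol, and are 2 of the 15542 genes in the deposited table and 2 of the 10599 genes that had enough reads to be tested. The series holds 20 libraries. Of these, 6 came from whole embryos that had not been vitrified (fresh embryos) and 5 from trophectoderm (TE) isolated from fresh embryos. A further 2 came from whole vitrified embryos and 7 from TE of vitrified embryos. To vitrify an embryo is to freeze it so quickly that its water turns glassy without ice crystals. All embryos were day 14 Bos taurus embryos flushed from the uterus, 12 fresh and 9 vitrified per the submitters' design text. Neither the breed of the embryos, nor how they were made, nor which embryo gave which library is stated in the labels.

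TE is the outer epithelium of the embryo, from which the placental epithelium arises, and a whole embryo holds the epiblast and the hypoblast beside it. PTGS2, also called cyclooxygenase 2, turns arachidonate freed from membrane phospholipids into prostaglandin H2, which terminal synthases convert into prostaglandins E2, F2 alpha, I2 or D2. The elongating ruminant conceptus makes prostaglandins, which act on the uterine lining and on the conceptus itself through membrane and nuclear receptors. STAR carries cholesterol from the outer to the inner mitochondrial membrane, where the side-chain cleavage enzyme CYP11A1 turns it into pregnenolone. That transfer is the rate-limiting step of acute steroid synthesis in the adrenal and the gonads.

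On the UMD3.1 assembly, PTGS2 lies on the minus strand of chromosome 16, from 69263776 to 69271399, a span of 7624 bp. STAR lies on the minus strand of chromosome 27, from 33016930 to 33024353, a span of 7424 bp. Levels are in RPKM, the reads of a gene divided by its kilobases and by the M reads (M stands for 1000000) sequenced in that library, after removal of an offset of 0.01. The kilobases are those of the whole genomic span, introns included, and values scaled to exon length would differ. Libraries held 6.01 to 14.53 M reads, in which PTGS2 had 1226 to 7537 reads and STAR 28 to 410.

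The fresh TE libraries, 5 in number, differed from the remaining 15 in composition. Only 33.8 to 40.3% of their inferred total reads fell on genes of the table, against 57.5 to 63.9% elsewhere. Mitochondrially encoded mRNA made up 1.09 to 1.41% of these listed-gene reads, against 3.01 to 9.87%. Ratios of PTGS2 and STAR to fresh TE are therefore also given per M reads of the listed genes, and levels of other genes are in RPKM only. Fresh TE libraries 1 and 2, and likewise 3 and 4, were nearly alike over all genes but differed by more than sampling noise and were counted separately. The labels do not say that the samples of a group came from separate embryos. P-values therefore measure the spread between these samples only, part of which may be technical. No batch is named in the labels, and one that coincided with a group cannot be told apart from it.

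PTGS2 was highest in fresh TE and lowest in both vitrified groups. The 5 fresh TE libraries held 160, 121, 107, 106 and 90.6 RPKM (117 ± 26.4, SD, n = 5). The 6 fresh embryos ranged from 34.9 to 57.9 RPKM with a median of 42.6 (44.8 ± 9.20, SD, n = 6). The 2 vitrified embryos held 24.7 and 31.0 RPKM. Every fresh TE library lay above every library of the other groups, and both vitrified embryos lay below all 6 fresh embryos. The 7 vitrified TE libraries ranged from 18.9 to 38.1 RPKM with a median of 21.6 (26.0 ± 7.98, SD, n = 7), and 2 of them, at 38.1 and 36.6, lay within the range of the fresh embryos. The order of mean levels was thus fresh TE, fresh embryo, vitrified embryo and vitrified TE, with the vitrified embryos inside the range of vitrified TE.

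STAR was lowest in fresh TE, where PTGS2 was highest. The fresh TE libraries held 0.611, 0.718, 0.635, 0.870 and 0.765 RPKM (0.720 ± 0.105, SD, n = 5), from 28 to 47 reads each. The 6 fresh embryos ranged from 2.61 to 3.80 RPKM with a median of 2.81 (2.95 ± 0.440, SD, n = 6). The 7 vitrified TE libraries ranged from 1.96 to 3.18 RPKM with a median of 2.64 (2.64 ± 0.437, SD, n = 7). The 2 vitrified embryos held 3.34 and 3.50 RPKM. No fresh TE library reached the lowest library of any other group, whereas the fresh embryos overlapped both vitrified groups. The order of mean levels was vitrified embryo, fresh embryo, vitrified TE and fresh TE. The exact Poisson 95% interval of the highest fresh TE library, 0.639 to 1.16 RPKM, ended below that of the lowest vitrified TE library, 1.64 to 2.34 RPKM. These intervals cover counting error only.

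**Figure D1:**
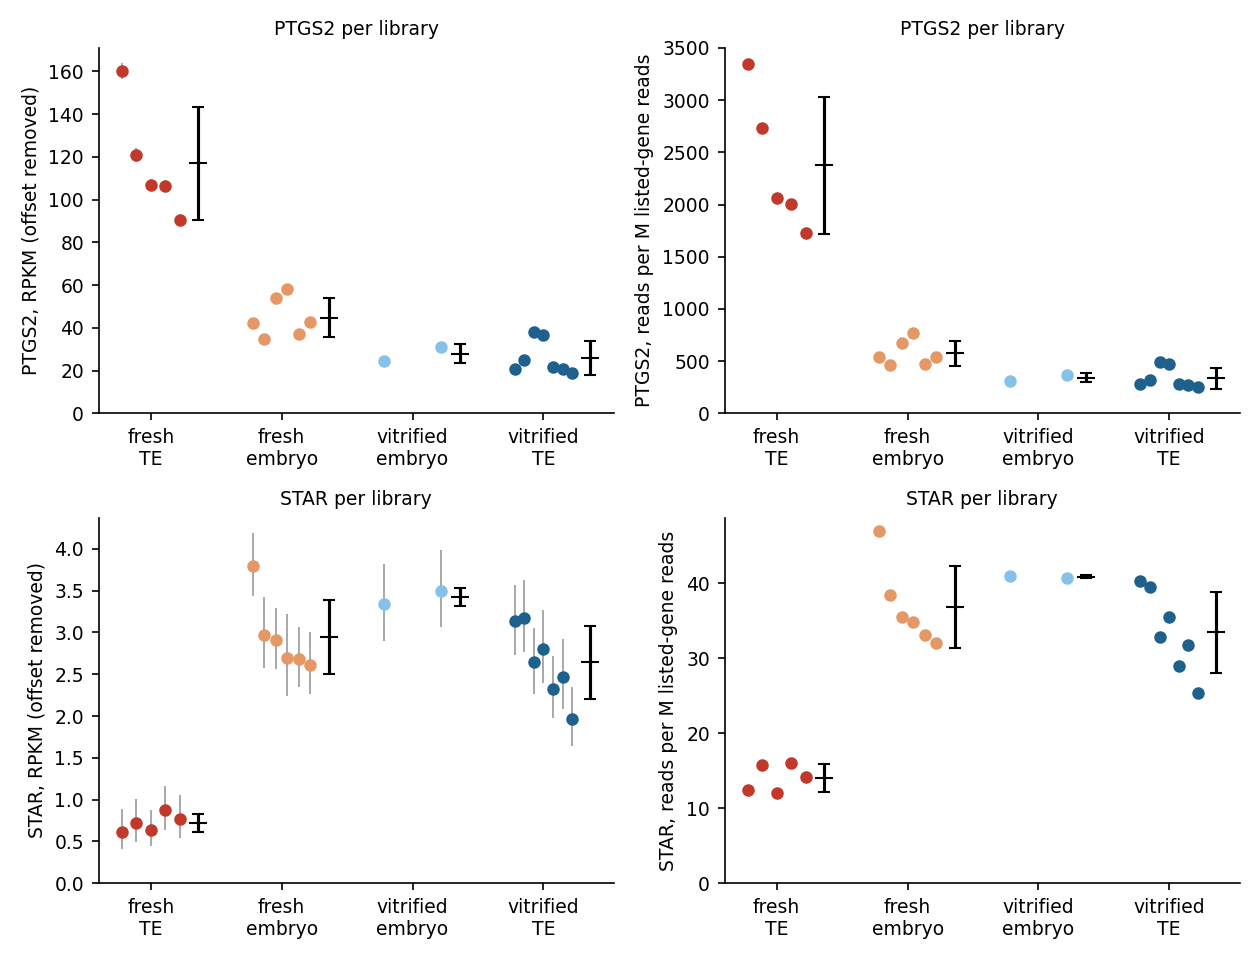
PTGS2 (top) and STAR (bottom) in each of the 20 libraries, in RPKM (left) and in reads per M listed-gene reads (right). Points are libraries, thin grey lines their exact Poisson 95% intervals (left panels), and black bars the group mean ± SD. For PTGS2 the 5 fresh TE libraries lie above all others on both scales, and for STAR they lie below all others on both scales.

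The first question of the design is how vitrified and fresh TE differed. PTGS2 was 4.50 times higher in fresh than in vitrified TE, and STAR was 3.67 times higher in vitrified than in fresh TE, as ratios of mean RPKM. Per M listed-gene reads these ratios were 7.05 and 2.38. For neither gene did the 7 vitrified and 5 fresh TE libraries overlap. In bulk samples, fewer cells that express a gene and less of its RNA per cell cannot be told apart.

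On the log2(RPKM + 1) scale PTGS2 fell by 2.15 (SE 0.190, adjusted p = 8.5e-09) and STAR rose by 1.08 (SE 0.0906, adjusted p = 4.6e-09), by limma with Benjamini-Hochberg adjustment over all tested genes. This scale understates the change of a gene as low as STAR. The exact two-sided permutation test of the difference of mean RPKM gave p = 0.0025 for each gene, the smallest that 7 against 5 libraries allow (0.0087 adjusted over the 8 member comparisons).

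The calls have to be read against all genes, since most rose. Of the 10599 tested genes, 69.0% were called higher and 6.66% lower in vitrified TE, and 54.6% were higher and 3.96% lower with no overlap between the groups. The fall of PTGS2 went against this shift, and only 21 genes fell further on the log2(RPKM + 1) scale. STAR moved with it: 1467 genes rose further, and 86.2% of genes lay below its rise. By ratio of mean RPKM, the median gene was 2.45 times higher in vitrified TE. STAR stood 1.50 times above that median, with 34.1% of genes above it, and PTGS2 stood 11.0 times below it, with 1.02% of genes below.

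Scaling changed the size of both differences and the direction of neither. The difference of PTGS2 was -2.77 on reads of listed genes, -3.25 after median-ratio scaling and -2.80 after quantile normalization. That of STAR was 0.76, 0.46 and 0.39 in the same order, with a largest adjusted p by limma of 6.8e-04. The median of all genes moved from 0.18 to 0.06, 0.01 and -0.01 under these scalings. The share of higher among all called genes went from 91.2% to 75.8%, 56.0% and 40.4%. On the log2(RPKM + 1) scale STAR stayed above 84.5 to 86.8% of all tested genes under these scalings. Between 16 and 24 genes fell further than PTGS2. Among genes with a mean of at least 1 RPKM, without rescaling, STAR lay above 63.6%.

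Vitrified and fresh samples differed less among whole embryos. PTGS2 was 1.61 times higher in fresh than in vitrified embryos, and the groups did not overlap. The share of all tested genes without overlap was not counted for this comparison. The difference of PTGS2 was -0.65 on the log2(RPKM + 1) scale (SE 0.264), and the adjusted p of 0.068 by limma did not pass the threshold of 0.05. After median-ratio scaling it was -0.97 and passed (adjusted p = 0.014, limma). STAR was 1.16 times higher in vitrified embryos, with overlapping groups and a difference of 0.17 (SE 0.126, adjusted p = 0.33, limma). Of all tested genes 26.9% were called higher and 3.94% lower in vitrified embryos. The exact permutation test gave p = 0.071 for PTGS2, the smallest two-sided p that 6 against 2 libraries allow, and p = 0.21 for STAR, so 0.05 could not be reached.

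For both genes the difference between vitrified and fresh samples was not the same in whole embryos and TE. The difference in whole embryos minus that in TE was 1.50 for PTGS2 (SE 0.325, adjusted p = 0.0019) and -0.91 for STAR (SE 0.156, adjusted p = 2.7e-04), by limma on the log2(RPKM + 1) scale. For each gene the difference was nearer 0 in whole embryos, where neither gene passed on its own. Among all tested genes the embryo difference minus the TE difference was called positive for 3.98% and negative for 28.4%. This term uses the 5 fresh TE libraries, which differed in composition from the remaining 15, fresh embryos included. The part of that composition in the term was not tested.

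A further comparison of the design is whole embryo against isolated TE. Among fresh samples, PTGS2 was 2.61 times lower and STAR 4.09 times higher in whole embryos than in TE (4.14 and 2.62 times per M listed-gene reads). Neither gene overlapped between the 6 fresh embryos and the 5 fresh TE libraries. The differences were -1.36 for PTGS2 (SE 0.196, adjusted p = 7.1e-06, limma) and 1.19 for STAR (SE 0.0937, adjusted p = 4.8e-09, limma). The exact permutation test gave p = 0.0043 for each, the smallest possible here. All tested genes were called higher in 60.0% and lower in 5.97% of cases. They were higher with no overlap in 48.4% and lower with no overlap in 2.94%. Both this comparison and that of vitrified with fresh TE use the same 5 fresh TE libraries, so their differences are not independent of each other.

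Among vitrified samples the same comparison gave no call. PTGS2 was 1.07 times higher in whole embryos than in TE, a difference of 0.13 (SE 0.260, adjusted p = 0.75, limma). Its sign turned under median-ratio scaling, under quantile normalization and without vitrified embryo 2. STAR was 1.29 times higher in whole embryos, and both vitrified embryos lay above all 7 TE libraries. Its difference of 0.29 did not pass (SE 0.124, adjusted p = 0.11, limma), and the exact permutation p was 0.056, the smallest two-sided value for 2 against 7. The share of all tested genes without overlap was not counted here either. Of all genes 15.3% were called higher and 3.59% lower in vitrified whole embryos.

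Fresh embryos were also set beside vitrified TE, a comparison added after the data had been seen, which leaves out the fresh TE libraries. PTGS2 was 1.72 times higher in fresh embryos, a difference of 0.79 (adjusted p = 0.0014, limma), although the groups overlapped. It passed under all 32 alternatives tried. STAR was 1.11 times higher, a difference of 0.12 that did not pass (adjusted p = 0.27, limma). It passed after median-ratio scaling (0.21) and quantile normalization (0.23). Of all genes 17.7% were called higher and 31.2% lower in fresh embryos.

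**Figure D2:**
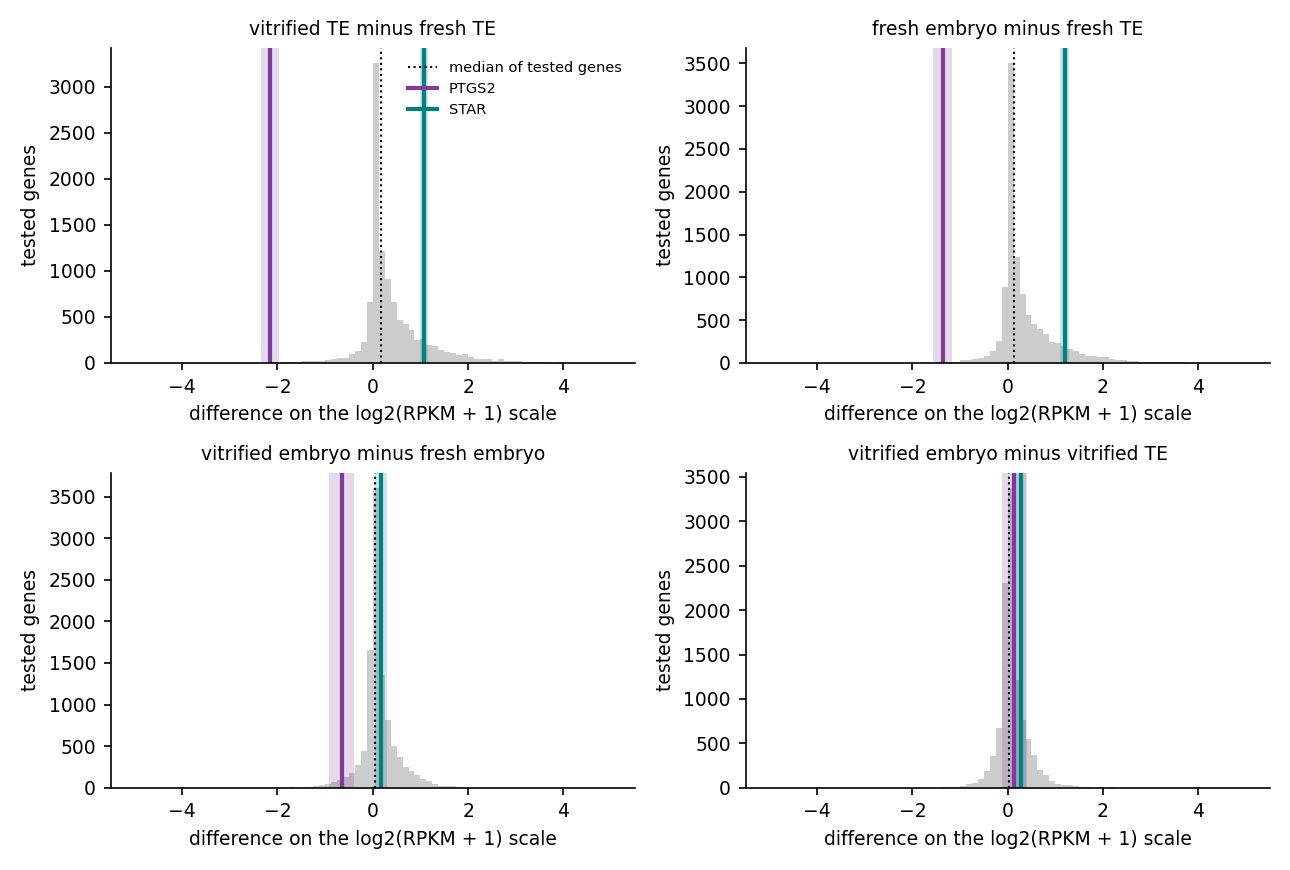
Differences on the log2(RPKM + 1) scale of all 10599 tested genes (grey histograms) in 4 comparisons, with PTGS2 (purple) and STAR (teal) as vertical lines and bands of ± 1 SE, and the median of tested genes as a dotted line. In both comparisons with fresh TE, PTGS2 lies far in the sparse lower tail, at -2.15 and -1.36, while STAR, at 1.08 and 1.19, lies within the broad upper side. In the lower panels both lie nearer the median.

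Since a ratio of genes within a library does not depend on how that library is scaled, PTGS2 was also divided by STAR. The ratio of their RPKM was 118 to 262 in fresh TE and 11.1 to 21.5 in fresh embryos. It was 7.38 and 8.85 in the 2 vitrified embryos, and 6.68 to 14.4 in vitrified TE. Fresh TE stood above every other library, which follows from its highest PTGS2 and lowest STAR. Fresh embryos overlapped vitrified TE but lay above both vitrified embryos. The ratio is given as a description.

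**Figure D3:**
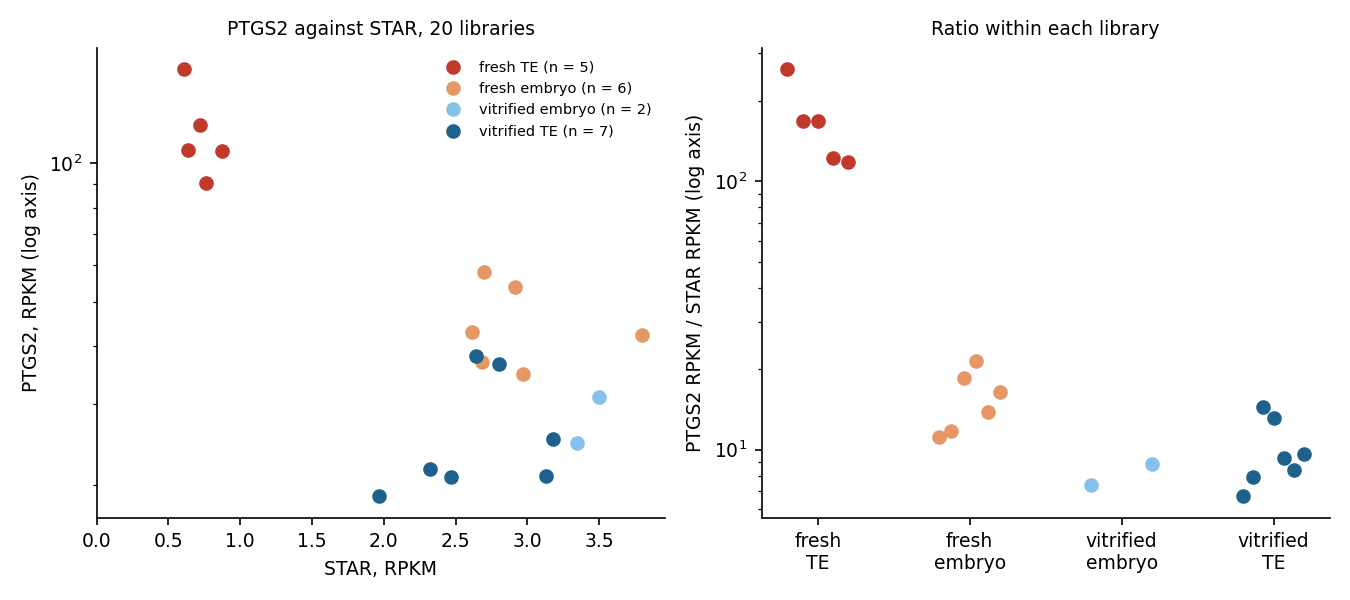
Left, PTGS2 (RPKM, log axis) against STAR (RPKM) in the 20 libraries, coloured by group. Right, the ratio of the RPKM values within each library (log axis). The fresh TE libraries form a cloud of their own, with a ratio of at least 118 against at most 21.5 elsewhere.

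Within groups the genes showed no clear relation. Over the 6 fresh embryos Pearson's r of PTGS2 with STAR was -0.14 (exact permutation p = 0.80) and Spearman's rho was -0.26 (exact permutation p = 0.66). Over the 7 vitrified TE libraries r was 0.36 (exact permutation p = 0.41) and rho 0.50 (exact permutation p = 0.27). Adjusted over these 2 relations, the exact permutation p of r was 0.80 in each group, and that of rho 0.66 and 0.53. Without the 2 libraries farthest from the median PTGS2, r was 0.26 over 4 fresh embryos and 0.75 over 5 vitrified TE libraries. No r between PTGS2 and STAR is given over the 20 libraries, as fresh TE forms a separate cluster.

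The other genes of the prostaglandin pathway went in both directions in TE. Of 72 listed genes of the pathway, 57 were in the table and 37 were tested, PTGS2 included. In vitrified against fresh TE, 21 were called higher, 10 lower and 6 did not pass, with a median of 0.06 against 0.18 for all tested genes. Of all tested genes 69.0% were higher there and 6.66% lower. After median-ratio scaling 10 were higher and 13 lower, against 3720 and 2920 of all 10599 tested genes. After quantile normalization 8 were higher and 16 lower, against 2776 and 4100. In whole embryos 12 rose, 0 fell and 25 did not pass by limma, where 26.9% of all tested genes rose and 3.94% fell. After median-ratio scaling 6 rose and 2 fell there, against 1123 and 740 of all genes. At an unadjusted p under 0.05 by limma 2 of the 37 were lower there, PTGS2 and PLAA, a phospholipase A2 activator named after its values were seen, and both passed after median-ratio scaling.

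Upstream of PTGS2, 7 genes of arachidonate release were tested. In vitrified against fresh TE 2 rose, 3 fell and 2 did not pass, where 69.0% of all tested genes rose and 6.66% fell. On reads of listed genes and after median-ratio scaling 2 rose and 5 fell, and after quantile normalization 0 rose and 5 fell. Of all 10599 tested genes 5215 rose and 1666 fell on reads of listed genes. The counts of all genes were 3720 and 2920 after median-ratio scaling, and 2776 and 4100 after quantile normalization. PLA2G15, a lysosomal phospholipase, fell from 12.6 ± 1.20 RPKM in fresh TE (SD, n = 5) to 5.71 ± 1.09 in vitrified TE (SD, n = 7), and was 3.26 ± 0.789 in fresh embryos (SD, n = 6). PLA2G4A, the cytosolic phospholipase usually coupled to PTGS2, fell in vitrified TE, with 23 to 89 reads per fresh TE library and 0 to 12 per vitrified TE library. Its level was 0.0381 ± 0.0230 RPKM in fresh TE (SD, n = 5) and 0.00375 ± 0.00266 in vitrified TE (SD, n = 7). PLA2G6 was 1 of the 2 genes that rose, with 0 to 4 reads per fresh TE library and 4 to 29 per vitrified TE library. Its level was 0.00484 ± 0.00425 RPKM in fresh TE (SD, n = 5) and 0.0477 ± 0.0211 in vitrified TE (SD, n = 7). PTGS1, the constitutive cyclooxygenase, had at most 7 reads in any library and was not tested. Cyclooxygenase reads in these samples were thus almost all from PTGS2.

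Of 7 terminal synthases tested in TE, 2 rose, 3 fell and 2 did not pass, where 69.0% of all tested genes rose and 6.66% fell. AKR1B1, an aldose reductase with prostaglandin F synthase activity, was the most abundant per span. It held 58.0 ± 10.3 RPKM in fresh TE (SD, n = 5) and 33.7 ± 4.08 in vitrified TE (SD, n = 7), a fall of 0.76 (adjusted p = 4.8e-05, limma). Like PTGS2 it was lower in fresh embryos, at 25.3 ± 4.08 RPKM (SD, n = 6), but the vitrified embryos, at 37.1 and 49.9, lay above all fresh embryos, where PTGS2 lay below. The prostaglandin E synthases split. PTGES2, a membrane-associated form, rose from 0.0995 ± 0.0703 RPKM in fresh TE (SD, n = 5) to 1.84 ± 0.289 in vitrified TE (SD, n = 7), while PTGES3, a cytosolic form that is also an HSP90 co-chaperone, fell from 18.7 ± 2.83 to 14.9 ± 1.76. The inducible form PTGES, at 0.733 ± 0.0982 and 1.32 ± 0.527 RPKM, did not pass (adjusted p = 0.095, limma), nor did the prostacyclin synthase gene PTGIS (adjusted p = 0.055, limma), which passed as lower under each of the other 3 scalings. PTGDS, a prostaglandin D synthase, had at most 6 reads per library.

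Of 4 genes of prostaglandin breakdown, 2 rose in TE, against the fall of PTGS2, 1 fell and 1 did not pass. Of all tested genes 69.0% rose there and 6.66% fell. PTGR1, a prostaglandin reductase, rose from 0.337 ± 0.138 RPKM in fresh TE (SD, n = 5) to 3.75 ± 1.65 in vitrified TE (SD, n = 7), and held 5.66 ± 3.34 in fresh embryos (SD, n = 6). PTGR2, a related reductase, rose from 0.473 ± 0.0929 to 1.25 ± 0.317, a call lost after median-ratio scaling and quantile normalization. HPGD, which starts the breakdown and was the gene that fell, had at most 13 reads in any library. SLCO2A1, the prostaglandin uptake carrier, had 10 to 46 reads per fresh TE library and 1 to 21 per vitrified TE library.

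Receptors for prostaglandins were barely detected. The E receptor gene PTGER2 and the F receptor gene PTGFR had at most 7 reads in any library, and PTGER4, the other E receptor named here, had at most 18 and did not pass in TE. Among the nuclear receptors, PPARG, which binds prostaglandin derivatives, had 39 to 69 reads in each fresh TE library and 1 to 12 in every other library. It was one of the genes high with PTGS2 in fresh TE, at 0.0679 ± 0.0168 RPKM (SD, n = 5) against 0.00622 ± 0.00330 in vitrified TE (SD, n = 7, adjusted p = 3.1e-09, limma). PPARD had at most 3 reads. ABCC4, the prostaglandin efflux carrier, was not analysed here.

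Genes that regulate PTGS2 transcription or mRNA decay moved the other way from PTGS2 in TE, as most tested genes did. All 14 tested rose in vitrified TE, where 69.0% of all genes did. Only 10 rose on reads of listed genes, against 5215 of all 10599 tested genes. After median-ratio scaling 5 rose, against 3720 of all genes. After quantile normalization 5 rose and 3 fell, against 2776 and 4100 of all genes. ZFP36, which binds AU-rich elements and speeds mRNA decay, rose from 0.372 ± 0.112 RPKM in fresh TE (SD, n = 5) to 4.03 ± 1.35 in vitrified TE (SD, n = 7). ELAVL1, which binds similar elements and stabilizes mRNA, rose from 0.279 ± 0.0638 to 1.80 ± 0.103. USF2, a transcription factor, rose from 0.430 ± 0.103 to 1.85 ± 0.311. ZFP36 and ELAVL1 also rose in vitrified against fresh embryos. There 9 of the 14 rose and 5 did not pass, where 26.9% of all tested genes rose. On reads of listed genes 8 rose, against 2288 of all 10599 tested genes. After median-ratio scaling 4 rose, against 1123 of all genes, and after quantile normalization 2 rose, against 920. ELAVL1 did not pass there after median-ratio scaling or quantile normalization, and ZFP36 did not after quantile normalization. CREB1 rose by 0.06 in TE, a sign that turned under median-ratio scaling and quantile normalization, and CEBPB was not analysed here.

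The steroid pathway around STAR held more higher than lower genes in vitrified TE, where 69.0% of all tested genes were higher and 6.66% lower, and that balance turned after median-ratio scaling and quantile normalization. Of 83 listed genes, 67 were in the table and 57 were tested, STAR included. In vitrified against fresh TE 36 were higher, 6 lower and 15 did not pass, with a median of 0.13 against 0.18 for all tested genes. After median-ratio scaling 16 were higher and 21 lower, against 3720 and 2920 of all 10599 tested genes. After quantile normalization the counts were 14 and 28, against 2776 and 4100 of all genes. In whole embryos 8 were higher, 2 lower and 47 did not pass, where 26.9% of all tested genes were higher and 3.94% lower. After median-ratio scaling 3 were higher and 2 lower there, against 1123 and 740 of all genes. Between fresh embryos and fresh TE 29 were higher in embryos, 9 lower and 19 did not pass, where 60.0% of all tested genes were higher and 5.97% lower. On reads of listed genes 19 were higher and 16 lower, against 4115 and 1677 of all 10599 tested genes. After median-ratio scaling the counts were 16 and 18, against 3164 and 2670 of all genes. After quantile normalization they were 14 and 25, against 2504 and 3675.

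Of 13 genes of cholesterol supply, 6 were higher in vitrified TE, 1 was lower and 6 did not pass. Of all tested genes 69.0% were higher there and 6.66% lower. On reads of listed genes 5 were higher and 5 lower, against 5215 and 1666 of all 10599 tested genes. After median-ratio scaling the counts were 2 and 7, against 3720 and 2920 of all genes. After quantile normalization they were 2 and 9, against 2776 and 4100. SREBF1, a transcription factor of lipid synthesis, rose from 0.147 ± 0.0589 RPKM in fresh TE (SD, n = 5) to 1.51 ± 0.413 in vitrified TE (SD, n = 7). SCARB1, the receptor for high-density lipoprotein, fell from 0.806 ± 0.116 RPKM in fresh TE (SD, n = 5) to 0.346 ± 0.291 in vitrified TE (SD, n = 7). NPC1, which exports cholesterol from lysosomes, rose by 0.26, and its sign turned under median-ratio scaling and quantile normalization.

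STAR gives its name to the START domain. The 7 tested genes listed with it, STAR included, rose in vitrified TE, where 69.0% of all tested genes did. One of them, STARD3NL, resembles the other end of STARD3 and lacks the domain. Only 5 of the 7 rose on reads of listed genes, against 5215 of all 10599 tested genes. After median-ratio scaling, as after quantile normalization, 2 rose and 1 fell. The counts of all genes were 3720 and 2920 after the former, and 2776 and 4100 after the latter. STARD3, a late endosomal relative of STAR, had 0 to 3 reads per fresh TE library and 19 to 35 per vitrified TE library. STARD4, a soluble sterol carrier, rose from 0.0727 ± 0.0342 RPKM in fresh TE (SD, n = 5) to 0.337 ± 0.119 in vitrified TE (SD, n = 7), and held 0.785 ± 0.410 in fresh embryos (SD, n = 6). STARD5 rose by 0.37 and STARD10 by 0.55, and the sign of STARD10 turned under median-ratio scaling and quantile normalization. All 7 were also higher in fresh embryos than in fresh TE, where 60.0% of all genes were. After median-ratio scaling 4 were, against 3164 of all 10599 tested genes, and the sign of STARD10 turned here as well.

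At the mitochondrial membrane, VDAC1, the main channel of the outer membrane, was low in the group where STAR was low. It rose from 2.45 ± 0.342 RPKM in fresh TE (SD, n = 5) to 10.1 ± 1.08 in vitrified TE (SD, n = 7) and held 12.2 ± 2.28 in fresh embryos (SD, n = 6). ATAD3A, an inner membrane ATPase, rose from 1.25 ± 0.240 to 5.58 ± 1.17 RPKM in TE. TSPO, the translocator protein, rose from 0.0785 ± 0.0255 to 0.275 ± 0.126, a call lost after median-ratio scaling and quantile normalization. DBI, a ligand of TSPO picked after its values were seen, fell from 147 ± 32.9 to 66.7 ± 15.2 RPKM in TE and, unlike STAR, from 121 ± 16.3 in fresh embryos (SD, n = 6) to 47.0 and 52.8 in vitrified embryos.

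The step after STAR did not rise with it. CYP11A1 held 2.08 ± 1.26 RPKM in fresh TE (SD, n = 5), 1.19 ± 0.398 in vitrified TE (SD, n = 7) and 0.657 ± 0.361 in fresh embryos (SD, n = 6). Its difference in TE of -0.39 did not pass (adjusted p = 0.11, limma) but passed as lower under each of the other 3 scalings, while it was lower in fresh embryos than in fresh TE (-0.80, adjusted p = 0.0047, limma), the reverse of STAR. FDX1, the electron donor of CYP11A1, did not pass in TE but passed as lower under each of the other 3 scalings, and FDXR, its reductase, rose by 0.59, a sign that turned under median-ratio scaling and quantile normalization.

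Of 16 downstream steroid enzymes, 11 rose in vitrified TE, where 69.0% of all genes did. Another 4 fell, where 6.66% of all genes did, and 1 did not pass. After median-ratio scaling 6 rose and 6 fell, against 3720 and 2920 of all 10599 tested genes. HSD17B1, which reduces estrone to estradiol, fell from 79.4 ± 12 RPKM in fresh TE (SD, n = 5) to 37.2 ± 8.88 in vitrified TE (SD, n = 7). HSD17B10, a mitochondrial dehydrogenase, rose from 13.5 ± 3.63 to 46.4 ± 8.63. CYP17A1, which makes androgens, rose from 0.0637 ± 0.0477 to 0.771 ± 0.151. HSD3B1, which makes progesterone from pregnenolone, rose by 0.56 (adjusted p = 0.030, limma), and its sign turned under median-ratio scaling and quantile normalization. CYP19A1, the aromatase, had at most 6 reads per library.

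Regulators of STAR were also listed. NR5A1, the steroidogenic factor of adrenal and gonad, had at most 1 read in any library, and NR5A2, its relative, at most 10. Of 9 regulators tested, 8 rose in vitrified TE, where 69.0% of all tested genes did, and 1 did not pass. After median-ratio scaling 4 rose and 1 fell, against 3720 and 2920 of all 10599 tested genes. After quantile normalization 3 rose and 3 fell, against 2776 and 4100 of all genes. PRKAR1A, a regulatory subunit of protein kinase A, rose from 3.16 ± 0.439 RPKM in fresh TE (SD, n = 5) to 9.44 ± 1.57 in vitrified TE (SD, n = 7). GATA4, a transcription factor, had 0 to 3 reads per fresh TE library and 46 to 93 per vitrified TE library. The glucocorticoid receptor gene NR3C1 had at most 11 reads in any library.

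**Figure D4:**
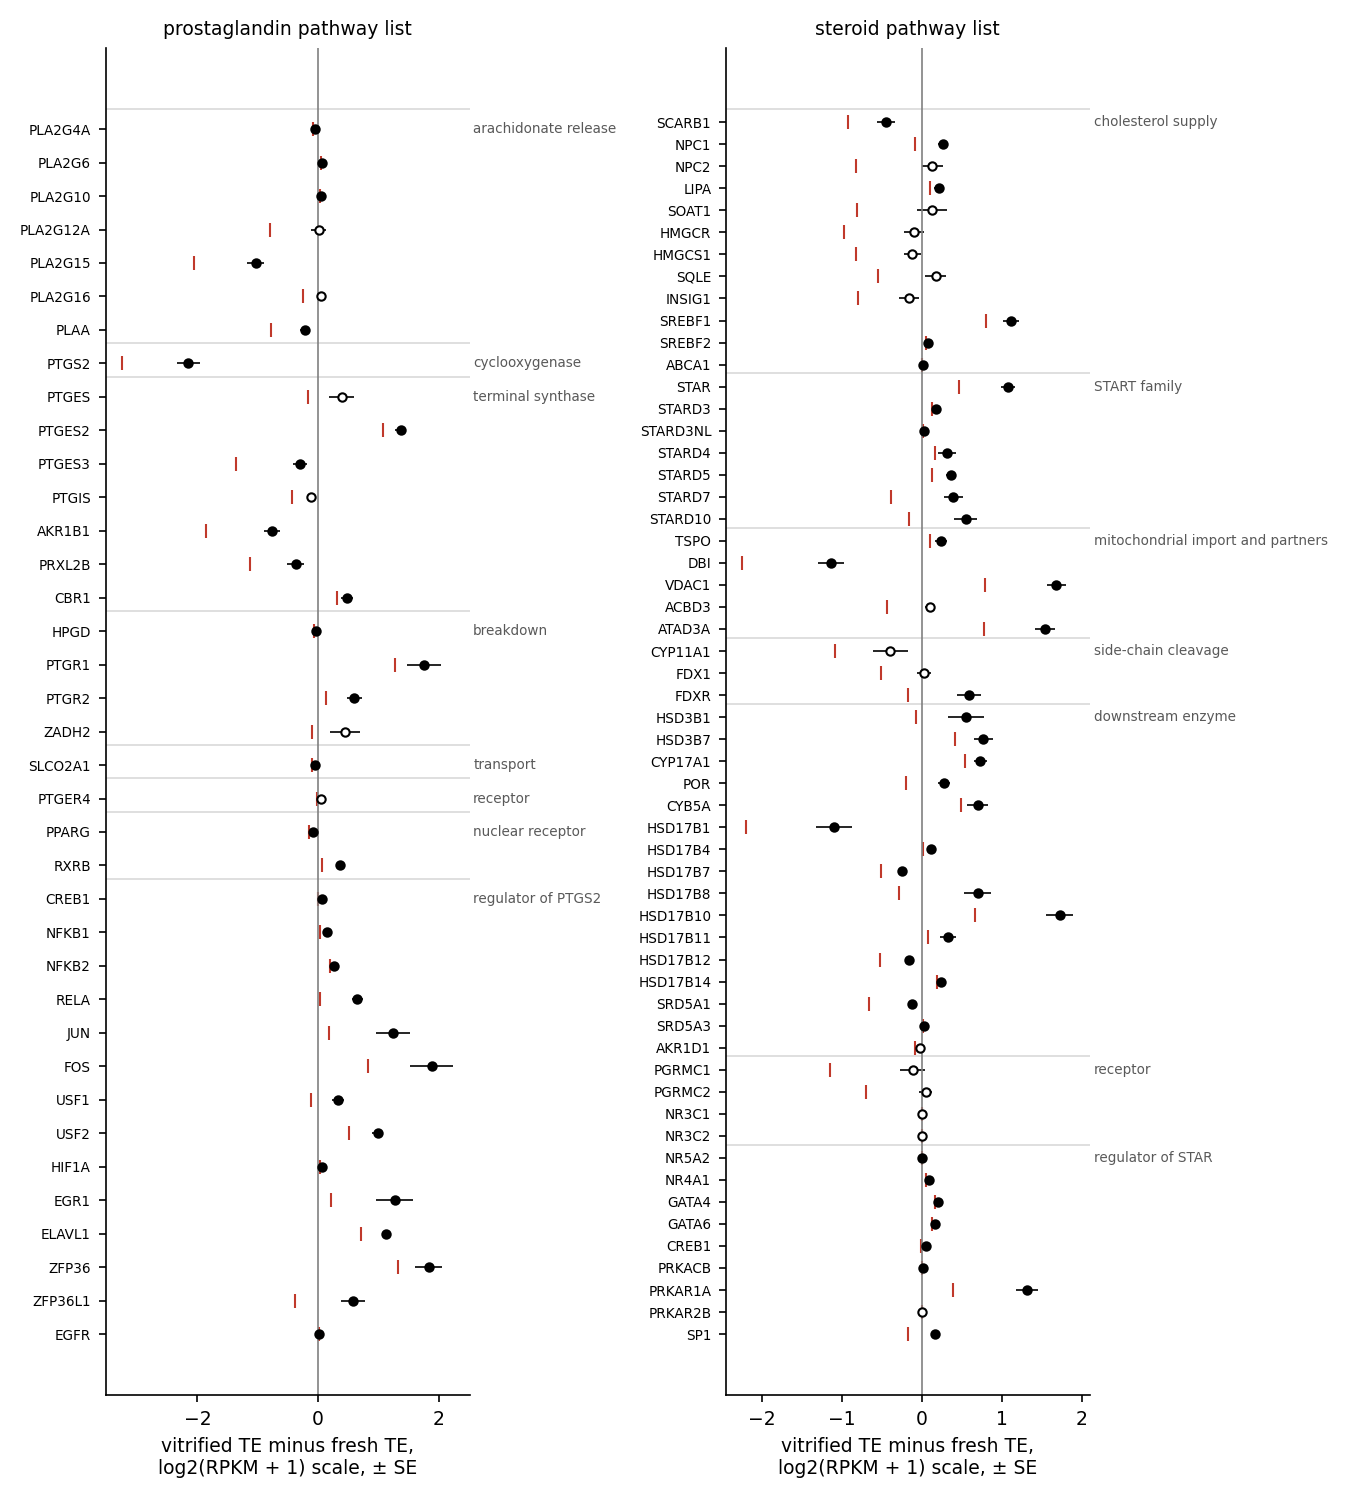
Difference between vitrified and fresh TE on the log2(RPKM + 1) scale, with its SE, for tested genes of the prostaglandin list (left) and the steroid list (right), grouped by role. Filled points passed an adjusted p of 0.05 by limma, open points did not, and red ticks show the difference after median-ratio scaling. PTGS2, at -2.15, is the lowest of its list, and most red ticks lie left of the points.

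Genes with the most similar profile were sought among 3326 genes with a mean of at least 1 RPKM, by Pearson's r of log2(RPKM + 1) over the 20 libraries. The libraries fall into the same 4 groups and differ in depth and composition. No other scaling was tried for r, which is a description and includes the shift of most genes between fresh TE and the other groups. The profile most like that of PTGS2 was IFNT, the interferon tau gene, with r = 0.94. IFNT averaged 119 ± 19.9 RPKM in fresh TE (SD, n = 5), 12.9 ± 5.27 in fresh embryos (SD, n = 6) and 3.75 ± 0.959 in vitrified TE (SD, n = 7), with 3.25 as the mean of the 2 vitrified embryos. FARSB (0.91), COMMD7 (0.90), REEP5 (0.90) and AIF1 (0.90) came next. Such profiles were rare on this scale: of the other 3325 genes 5 had an r with PTGS2 above 0.9 and 174 below -0.9, and the median was -0.69.

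The profile of STAR was common on the same scale. SET (0.97), IPO5 (0.97), MIEN1 (0.97), SLC20A1 (0.97) and LGALS3 (0.96) were the nearest, 474 of 3325 genes had an r above 0.9 and 14 below -0.9, and the median was 0.74. LGALS3, which encodes galectin 3, averaged 20.2 ± 5.26 RPKM in fresh TE (SD, n = 5), 256 ± 59.2 in fresh embryos (SD, n = 6) and 162 ± 61.3 in vitrified TE (SD, n = 7). With group means removed, other genes came nearest. CD24 (0.83), WSB2 (0.82), CNN3 (0.79), KLHDC3 (0.78) and PIGT (0.77) varied most like PTGS2 within groups. SRP68 (0.77), RNASEH2A (0.75), NXT1 (0.74), ADI1 (0.73) and TRABD (0.72) varied most like STAR.

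Marker genes of cell types moved with the groups, and their part in the levels of PTGS2 and STAR was not tested. All 11 trophectoderm markers were in the table, with summed levels of 2413 to 3184 RPKM in fresh TE, 1803 to 2570 in fresh embryos, 2564 to 3687 in vitrified TE and 2891 to 3409 in vitrified embryos. In fresh TE most of that sum was KRT18, a keratin gene, at 2154 ± 259 RPKM (SD, n = 5) against 1175 ± 279 in fresh embryos (SD, n = 6). KRT8, its partner keratin, had a lower mean in fresh TE (163 RPKM) than in fresh embryos (426), as did ASCL2, a trophoblast transcription factor (13.9 and 36.0). The 8 of 11 hypoblast markers in the table summed to 150 to 322 RPKM in fresh TE, and to 563 to 991, 590 to 1253 and 202 to 693 in the same order. Most of that sum was APOA1, an apolipoprotein gene, with means of 243, 763, 892 and 442 RPKM in the same order. The 7 of 8 epiblast markers in the table summed to 0.429 to 0.796 RPKM in fresh TE, 2.23 to 10.2 in fresh embryos, 2.54 to 4.16 in vitrified TE and 1.92 to 30.0 in vitrified embryos.

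The uterine lining expresses PTGS2 as well, and steroid-making cells express STAR. The 7 of 12 endometrium markers in the table summed to 1.54 to 3.24 RPKM in fresh TE and to 2.99 to 7.26 in fresh embryos. They summed to 2.34 to 14.6 in vitrified TE and to 2.01 to 3.91 in vitrified embryos. SERPINA14, PAEP, PGR, ESR1 and IGFBP1 were not among the 7, and only MUC1, SUSD2 and LTF had enough reads to be tested. OXTR, HOXA10, HOXA11 and FOXL2 had at most 3 reads in any library. The 6 of 9 blood and immune markers in the table summed to 9.80 to 15.9 RPKM in fresh TE against 3.94 to 5.63, 4.41 to 7.23 and 3.75 to 5.55 in the same order. In fresh TE AIF1 made up most of that sum at 11.4 ± 2.5 RPKM (SD, n = 5), with CD74 at 0 and CD14 and CD68 at 2 to 8 and 3 to 7 reads per library. All 8 markers of steroid-making cells were in the table, with sums of 1.91 to 4.34 RPKM in fresh TE, 1.36 to 5.72 in fresh embryos, 2.60 to 4.88 in vitrified TE and 3.09 to 3.89 in vitrified embryos. The gonadotropin receptor genes LHCGR and FSHR had at most 4 reads in any library and were at 0 in both vitrified groups.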

How the data were processed

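RNA of 20 samples from bovine day 14 embryos was sequenced. Per the submitters' processing notes, FastQC, the STAR aligner 2.5.3a (not to be confused with the gene STAR), Partek and the UMD3.1 assembly were used. How reads were counted is not given in the sources used here. Values deposited by the authors are RPKM with an offset of 0.01 added to each, a unit inferred from the values. After removal of the offset, 94.4 to 95.8% of values under 1000 reads fell within 0.1 of a whole number of reads, which gave reads and depth per library. Intervals from reads cover counting error only.

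Genes with at least 10 reads in at least 2 libraries were tested (10599 of 15542) on log2(RPKM + 1) with limma 3.58.1 in R 4.3.3, in a model with 4 group means and a shared spread. Trend and robust fitting were used, and p-values were Benjamini-Hochberg adjusted over all tested genes with a threshold of 0.05. The fit was tested on simulated data. Single values were compared by exact permutation tests in scipy 1.17.1. Alternatives, 32 in all, were other pseudocounts, filters, scalings and models, the replicate number as a block, near-identical libraries averaged, and each library left out.

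The members, gene lists and naming rule were chosen with earlier results of these data known. The rule named PTGS2, STAR, a written selection from the pathway lists, up to 2 further genes of each role with the smallest p in vitrified against fresh TE, and the 5 genes most like each member. A gene of the rule, counted in its list but left out of the plot, is not reported here. Replicate numbers were not used as pairs. Older symbols were matched through RefSeq names of the ARS-UCD2.0 assembly, none of whose coordinates were used.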

Additional observations from a re-analysis of the deposited data

Results flagged for a closer look

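The difference between vitrified and fresh samples in whole embryos minus that in TE was 1.50 for PTGS2 and -0.91 for STAR (limma, log2(RPKM + 1) scale).

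Single libraries far from the rest of their group were looked for by Dixon's criterion in 87 groups of named genes, of which chance gives about 1 in 20, and 8 were found. For STAR it was fresh embryo 1 at 3.80 RPKM, against 2.61 to 2.97 in the other 5. Without that library the difference of STAR between fresh embryos and fresh TE still passed. FDXR was also highest in fresh embryo 1, at 2.59 RPKM, and FDX1 in fresh embryo 6, at 1.67. HSD3B1 was highest in fresh TE 1, at 1.31 RPKM, and CREB1 in vitrified TE 4, at 0.135. The remaining 3 rest on few reads: HPGD in fresh embryo 4 (0.0479 RPKM), PTGER4 in fresh embryo 2 (0.133 RPKM) and NR5A2 in fresh TE 3 (0.00101 RPKM, the others at 0).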

How the results depend on the processing

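PTGS2 and STAR kept their direction and passed under all alternatives that gave a value in 3 comparisons. These were vitrified against fresh TE (32), fresh embryos against fresh TE (32) and the embryo difference minus the TE difference (31). The TE difference ranged from -3.25 to -1.99 for PTGS2 and from 0.39 to 1.74 for STAR, the latter with a pseudocount of 0.1. With the replicate block it was -2.05 for PTGS2 and 1.15 for STAR, and no call on either gene changed. Between fresh embryos and vitrified TE the block gave 0.72 for PTGS2 and 0.07 for STAR. Of 22 pairs of same-numbered samples 7 deviated together (r above 0.1). Among the 6 pairs of fresh embryo with vitrified TE 5 did so, and the remaining pair had r = -0.14. Whether same-numbered samples share more than a number was not tested. Under median-ratio scaling PTGS2 passed between vitrified and fresh embryos (-0.97). Under median-ratio scaling and quantile normalization PTGS2 turned between vitrified embryos and TE (-0.055 and -0.15), STAR turned between vitrified and fresh embryos (-0.077 and -0.11), and STAR passed between fresh embryos and vitrified TE (0.21 and 0.23). Leaving out single libraries moved PTGS2 between vitrified embryos and TE from -0.024 to 0.29, with the lowest value without vitrified embryo 2. The cause of these changes was not tested.

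Counts of pathway genes moved more. In TE, higher and lower prostaglandin genes numbered 10 and 13 after median-ratio scaling and 8 and 16 after quantile normalization. Steroid genes numbered 26 and 15 on reads of listed genes, 16 and 21 after median-ratio scaling and 14 and 28 after quantile normalization. All tested genes numbered 5215 and 1666 on reads of listed genes, 3720 and 2920 after median-ratio scaling and 2776 and 4100 after quantile normalization. A filter at a mean of 1 RPKM, which tests fewer genes, left 11 and 6 for prostaglandin and 10 and 2 for steroid genes. With that filter 2885 of all 3940 tested genes were higher and 416 lower. Depth limits STAR in fresh TE, with 28 to 47 reads per library, and leaves receptors and PTGS1 too low to compare.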

Other observations

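Fresh TE libraries 1 and 2 were nearly alike over all genes (chi-square per degree of freedom 1.88 over recovered reads, against 11.9 to 22.6 between other fresh TE pairs, apart from 1.48 between libraries 3 and 4). PTGS2 nevertheless read 160 RPKM in library 1 and 121 in library 2, 1.32 times apart, or 1.23 times per M listed-gene reads. Of 311 protein-coding genes with at least 1000 reads in both libraries, 3 including PTGS2 differed as far per M listed-gene reads, and the median was 1.04. Between libraries 3 and 4, PTGS2 differed 1.03 times by the same measure. With these pairs averaged, the TE differences of PTGS2 and STAR kept their direction and passed.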
